A study of Mus musculus with 6 samples.

Results

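Cluster 5 is 1 of 6 cluster numbers in the cell annotation deposited with single-cell RNA profiles of mouse hippocampal immune cells. The cells described here are those annotated both as microglia and as cluster 5. They numbered 217, of 2721 microglia and 3005 cells in all. Of these, 121 came from the acute non-helpless library and 96 from the chronic non-helpless library, and the other 4 libraries held none.

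The study used the learned helplessness paradigm, in which foot shocks that cannot be escaped are followed by a test of escape. Live CD45+ cells were sorted from hippocampi of BC57BL/6 mice, with meninges and choroid plexus removed, and sequenced from the 5′ end of transcripts on the 10x Genomics droplet platform. Shocked mice had received 180 inescapable shocks of 0.3 mA followed by an escape test (30 trials, each lasting 24 s). In the acute paradigm they were grouped as learned helpless or non-learned helpless. In the chronic paradigm they were retested weekly for 3 weeks and grouped as non-learned helpless, non recovered, or recovered; the recovered mice had first shown helplessness and had lost it by a later test. Non shocked mice were the control. Each group was 1 library, the sources used here give neither the number nor the age of its mice, and both non-helpless libraries carry the deposited response label "Resilient". With 1 library per group no test between groups was possible. Nor does comparing the cluster with other microglia give a test, because the cluster numbers were assigned to these same cells. All intervals are exact 95% intervals that cover counting error only, and a share of 0 is given with the share that 3 cells would make.

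Microglia are the resident macrophages of the brain. In the healthy brain they express a homeostatic set of genes that includes the purine receptor P2ry12, the surface protein Tmem119 and the fractalkine receptor Cx3cr1. In ageing, injury and demyelination some of them turn on genes of lipid handling, lysosomes and antigen presentation, among them Apoe, Lpl and Cst7, a pattern often called disease-associated microglia. Another group of microglial genes, the chemokines Ccl3 and Ccl4 and immediate early genes such as Atf3, can be switched on within minutes to hours, including by tissue dissociation.

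Cluster 5 microglia made up 21.3% (18.0% to 24.9%) of 569 microglia in the acute non-helpless library and 19.2% (15.9% to 22.98%) of 499 in the chronic non-helpless library. In the non-shocked library 0 of 552 microglia carried the number, where 3 cells would make 0.543%. The acute helpless library had 0 of 630, where 3 cells would make 0.476%. The chronic non-recovered library, with only 99 microglia, and the recovered library, with 372, also had 0. There 3 cells would make 3.03% and 0.806%. The exact upper limits of these 4 shares were 0.666%, 0.584%, 3.66% and 0.987%, in the same order. The number was thus found only in the libraries labelled non-helpless. The sources used here do not say how the clusters were made, and no library held all 6 numbers: each had 4 of them, except the non-recovered and recovered libraries, which had 2. Cells given number 5 in one library were not matched to cells of another number elsewhere, so the counts describe the annotation and not the absence of such cells. The acute non-helpless library belonged to deposited batch 2 and the chronic one to batch 3, while the non-shocked library was in both, with 0 of 123 and 0 of 429 microglia in cluster 5.

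**Figure D1:**
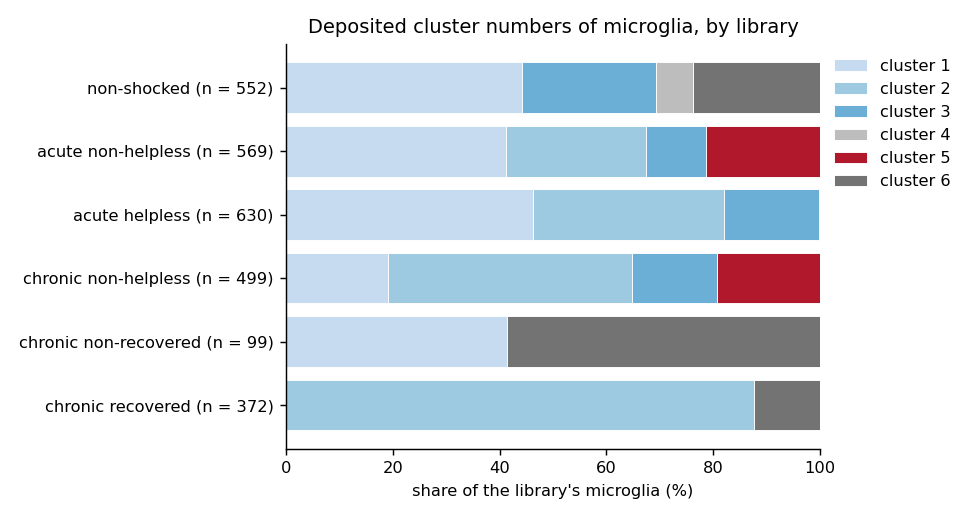
Share of each library's microglia (x axis, percent) that carries each deposited cluster number; n is the number of microglia and each bar is 1 library. Cluster 5 appears in the acute non-helpless library at 21.3% and in the chronic non-helpless library at 19.2% and in no other.

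Cluster 5 did not hold microglia alone. In the acute non-helpless library it also took in 10 of the 17 cells annotated as other types, namely 4 monocytes, 3 T cells, 2 macrophages and 1 B cell. In the chronic non-helpless library it took in 34 of 48, namely 14 T cells, 11 monocytes, 4 NK cells, 3 B cells and 2 macrophages. Clusters 1 and 2 of these libraries held 6 such cells together, all of them in cluster 1 of the chronic library. Cluster 3 held 7 of its 71 cells (9.86%) in the acute and 8 of 88 (9.09%) in the chronic library. The same shares of cluster 5 were 7.63% and 26.2%, so in the acute library cluster 5 was not the most mixed. The microglia of cluster 5 nevertheless carried microglial RNA in most cases. Median microglial marker UMIs (unique molecular identifiers, 1 per captured RNA molecule) were 3.66% of a cell's total against 3.90% in the other microglia of the acute library, and 4.52% against 4.82% in the chronic one. Under 0.5% was found in 1 of 121 and 4 of 96 cluster 5 cells, and in 1 cell of the other microglia of each library. T cell markers (Cd3d, Cd3e, Cd3g, Trac, Trbc1, Trbc2 and Lck) were at 0 UMIs in cluster 5 microglia of both libraries. Monocyte markers totalled 13 UMIs in 4 acute cells and 5 UMIs in 3 chronic cells, with Ly6c2 at 0 in both. Markers of border-associated macrophages totalled 15 UMIs in 4 cells and 37 UMIs in 3 cells, and 35 of the 37 lay in 1 barcode.

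Cluster 5 cells were shallower than the other microglia as a whole. The median was 2877 UMIs per cell against 3907.5 in the other microglia of the acute library, and 3563.5 against 4433 in the chronic library. They also carried more RNA of ribosomal protein genes, with a median of 8.13% of UMIs against 6.39% in the acute library and 6.67% against 5.11% in the chronic one. Cells with under 2.5% ribosomal protein UMIs were absent from cluster 5 (0 of 121 and 0 of 96) and made up 11.8% (53 cells) and 19.4% (78 cells) of the other microglia, of which 49 and 72 were in cluster 3. Mitochondrial shares were 1.61% against 1.29% and 1.12% against 1.02%. Scrublet, a doublet caller, marked 1 and 0 cluster 5 cells and 10 and 3 others, and 1 cell barcode of the acute cluster 5 microglia also occurred in the chronic non-helpless library. The part that depth and ribosomal content play in the gene differences was not tested beyond the thinned values and alternatives given with them.

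**Figure D2:**
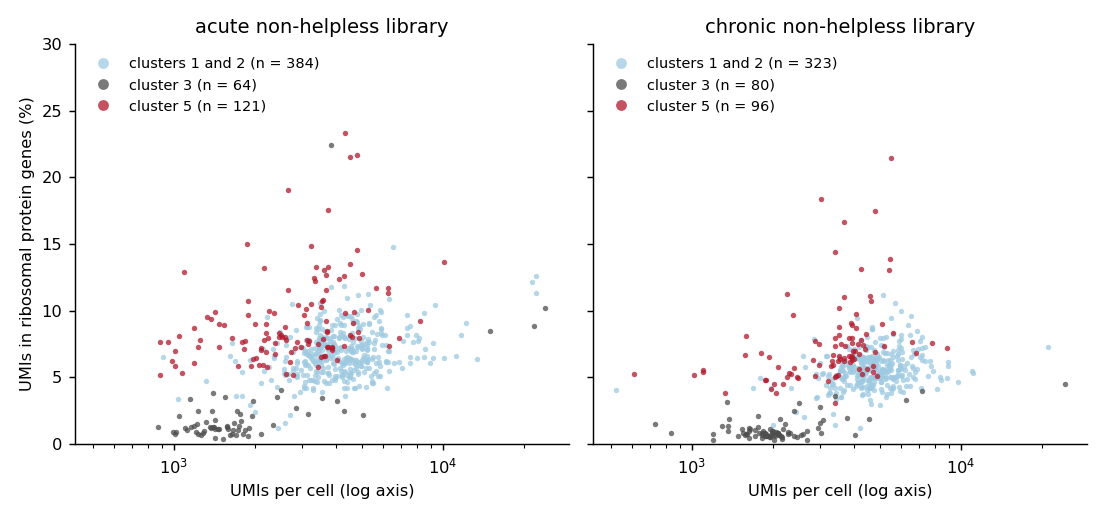
UMIs per cell (x axis, log scale) against the percentage of UMIs in ribosomal protein genes (y axis); each point is 1 microglial cell of the named library. The median ribosomal share of cluster 5 is 8.13% in the acute and 6.67% in the chronic library at median depths of 2877 and 3563.5 UMIs, while 49 of 64 and 72 of 80 cluster 3 cells lie under 2.5%.

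Of Lpl, Qpct and Atf3, taken as candidate markers of these cells, Lpl alone was higher in both libraries with intervals that exclude 1, also without the cell with most UMIs on each side. Lpl, which encodes lipoprotein lipase, an enzyme that releases fatty acids from triglycerides, had 63 UMIs in cluster 5 and 49 in the other microglia of the acute library. That is 170 against 25.8 CPM (the gene's UMIs scaled to a total of 1000000), a 6.57-fold difference (4.45 to 9.75). The chronic library gave 87 against 46 UMIs, or 253 against 25.7 CPM, 9.85-fold (6.82 to 14.4). These UMIs came from a minority of cells: 15.7% of acute and 17.7% of chronic cluster 5 cells had any Lpl, against 7.81% and 7.94% of the others. A single acute cell held 30 of the 63, and without the cell with most UMIs on each side the ratios were 3.80 (2.35 to 6.09) and 9.38 (6.28 to 14.2). Among T cells, which are not expected to make Lpl, 0 of 9 and 2 of 25 had a UMI at median depths of 14564 and 13297 UMIs. After every cell had been thinned to 1000 UMIs, Lpl was seen in 5.98% (2.44% to 11.9%) of cluster 5 and 3.37% (1.90% to 5.50%) of other acute microglia, intervals that overlap. The thinned chronic shares were 10.5% (5.16% to 18.5%) and 1.75% (0.706% to 3.57%), which do not.

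Over all microglia of a library, Lpl was highest in the libraries that hold cluster 5, by a small margin over some others. It was at 49.4 CPM in the acute non-helpless and 62.4 CPM in the chronic non-helpless library. The non-shocked library gave 47.0, the acute helpless 43.9, the non-recovered 32.9 and the recovered 20.3 CPM. These values are given without intervals. A single acute non-helpless cell held a large part of the Lpl UMIs of cluster 5 there, as given above. The order of the closer values is therefore not read. Outside cluster 5 the non-helpless libraries were at 25.8 and 25.7 CPM. Leaving out the cells richer in Lpl lowers this remainder, whereas no cells were left out of the other libraries. The remainder is therefore not compared with them.

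Qpct, which encodes the glutaminyl cyclase that modifies the N terminus of some peptides and chemokines, differed widely between libraries and, in the acute library, little between cluster 5 and the other microglia as a whole. In the acute non-helpless library it was at 466 CPM in cluster 5 and 440 CPM in the other microglia, a ratio of 1.06 (0.89 to 1.25), with UMIs in 70.2% and 72.8% of cells. Against cluster 3 alone, at 212 CPM, it was 2.19-fold higher (1.53 to 3.24). Other clusters differed in Qpct as well: in the non-shocked library 53 of its 56 UMIs lay in cluster 6. In the chronic non-helpless library it had 4 and 2 UMIs, or 11.7 and 1.12 CPM. Microglia outside cluster 5 spanned 1.12 CPM in the chronic non-helpless, 5.16 in the acute helpless, 29.9 in the non-shocked, 56.2 in the recovered and 191 CPM in the non-recovered library. T cells of the acute non-helpless library were at 261 CPM, with a UMI in 8 of 9 cells, so the high level was shared by cells of another type. That library differs from each of the others in paradigm or outcome. Its deposited batch, 2, was shared only by part of the non-shocked library, where Qpct was not split by batch. The part of paradigm, outcome and batch was not tested.

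Atf3, a stress-induced transcription factor of the immediate early class, was at 86.2 against 61.7 CPM in the acute library, a ratio of 1.40 (0.91 to 2.08). In the chronic library it was at 195 against 70.5 CPM, 2.77-fold (2.03 to 3.75), but 38 of its 67 UMIs lay in 1 cell. Without the cell with most UMIs on each side the chronic ratio was 1.33 (0.85 to 2.01). The share of cells with Atf3 was nearly the same in and outside the cluster, 15.7% and 15.6% in the acute and 18.8% and 18.1% in the chronic library. Atf3 at comparable levels also occurred in cluster 3, at 130 and 203 CPM. The cells are therefore called by their cluster number and not by these markers.

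Over all measured genes, 94 of 3283 were at least 1.5-fold higher in cluster 5 than in the other microglia of the acute library (2.86%), and 531 were at least 1.5-fold lower (16.2%). In the chronic library 169 of 3239 were higher (5.22%) and 421 lower (13%). Genes counted here had at least 50 CPM and 30 UMIs on the higher side, which asks for over 80 CPM in the smaller cluster 5 sums and works against genes higher there. These shares are the background for the counts that follow, and since the clusters were made from these cells nothing is read from them. The median log2 ratio over these genes was -0.18 in the acute and -0.13 in the chronic library. Scaling by median-of-ratios size factors in place of total UMIs changed the split to 236 higher and 261 lower in the acute library and to 240 and 326 in the chronic one, with medians of -0.04 and -0.06. Small differences in either direction are to be read against that shift.

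Between the libraries 44 genes were higher in both, which is 46.8% of the acute and 26.0% of the chronic calls. Another 126 were lower in both, 23.7% and 29.9% of the calls, out of 2800 genes measured in both. The opposite direction was found for 5 genes: Bag3 was higher in the acute and lower in the chronic library, and Ddx21, Emc6, Gtpbp4 and Rrp7a were lower in the acute and higher in the chronic library. These 5 are named for being exceptions, after their values were seen.

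Genes of the disease-associated pattern lay on the higher side. Of the 25 on the fixed list, 19 were measured in the acute library, of which 9 were at least 1.5-fold higher and 0 lower. Of 20 measured in the chronic library, 11 were higher and 0 lower. The list's median log2 ratio was 0.58 in the acute and 0.90 in the chronic library, against -0.18 and -0.05 over all genes of at least 20 CPM, where 405 of 6924 genes (5.85%) and 793 of 7220 (11%) were higher and 1501 (21.7%) and 1149 (15.9%) lower. Higher in both libraries were Apoe, Lpl, Cst7, Itgax, Axl, Cd63, Csf1, Ank and Lyz2. The list held genes already known to differ in these cells, so its count is a description. The wider list of lipid and cholesterol handling did not share this level: 3 of 16 members were higher and 0 lower in the acute library, with a median of -0.11, and 6 of 21 were higher and 1 lower in the chronic library, with a median of 0.12. Lpl, Apoe and Hmgcs1, an enzyme of sterol synthesis, were higher in both.

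Apoe encodes apolipoprotein E, the main lipid carrier of the brain. It had 446 UMIs in cluster 5 and 402 in the other microglia of the acute library, or 1202 against 212 CPM, 5.67-fold (4.94 to 6.50). In the chronic library it had 393 against 409 UMIs, or 1145 against 229 CPM, 5.01-fold (4.35 to 5.76). One chronic barcode carried 183 of the 393 together with 10 UMIs each of Pf4 and Mrc1, genes of border-associated macrophages, and without the cell with most UMIs on each side the ratios were 5.22 and 3.00. Apoe UMIs were found in 35.5% and 39.6% of cluster 5 cells and in 23.7% and 26.3% of the others. Thinned shares were 23.1% (15.8% to 31.8%) against 9.44% (6.89% to 12.5%) in the acute library and 22.1% (14.2% to 31.8%) against 11.8% (8.76% to 15.3%) in the chronic one. T cells of these libraries, thinned in the same way, showed Apoe in 1 of 9 and 2 of 25 cells. The deeper T cells gave unthinned shares of 4 of 9 and 14 of 25, and they held microglial RNA as well, with P2ry12 at 3339 and 5127 CPM.

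Levels near those of cluster 5 were not limited to it. Cluster 2 microglia of the acute helpless library had Apoe at 959 CPM, with UMIs in 46.5% of 226 cells, and Lyz2 at 349 CPM in 46.0% of them. Over all microglia Apoe was at 374 CPM in the acute and 376 CPM in the chronic non-helpless library, below the 525 CPM of the non-shocked and the 517 CPM of the acute helpless library. The non-microglial cells that share cluster 5, among them monocytes and macrophages, were higher still: Apoe was at 8918 CPM in the 10 acute and 2321 CPM in the 34 chronic cells, and Lyz2 at 6775 and 5120 CPM. RNA from such cells in barcodes annotated as microglia was not tested beyond the marker counts and marker check given here.

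Lyz2, the lysozyme of macrophages and other myeloid cells, was at 525 against 124 CPM in the acute library, 4.22-fold (3.47 to 5.13). The chronic values were 457 against 173 CPM, 2.65-fold (2.17 to 3.22). Thinned shares were 24.8% against 11.5% and 22.1% against 12.5% of cells. Cd63, a tetraspanin of late endosomes and lysosomes, was at 679 against 312 CPM (2.17-fold, 1.87 to 2.52) and 754 against 274 CPM (2.75-fold, 2.36 to 3.21). It was present in 54.5% of acute cluster 5 cells and 56.7% of the others, and in 70.8% and 53.3% of the chronic ones. Thinned shares were 27.4% (19.5% to 36.4%) against 21.8% (18.0% to 25.9%) and 37.9% (28.1% to 48.4%) against 23.8% (19.7% to 28.2%). Cst7, a cystatin that inhibits cathepsins, was found in 13 of 121 and 5 of 96 cluster 5 cells against 13 of 448 and 13 of 403 others. The receptor kinase Axl was found in 11 and 4 cluster 5 cells against 7 and 5 others, at 40.4 against 3.69 CPM in the acute and 35.0 against 2.80 CPM in the chronic library. Other abundant genes of the list differed less. The protease gene Ctsb was 1.4998-fold and 1.55-fold higher, just under and above the threshold, the tetraspanin gene Cd9 1.39-fold (1.27 to 1.52) and 1.28-fold (1.17 to 1.41), and the endosomal glycoprotein gene Cd68 1.44-fold (1.30 to 1.59) and 1.08-fold (0.97 to 1.20). The lipid receptor gene Trem2 had ratios of 1.04 (0.97 to 1.12) and 0.98, and the lysosomal protease gene Ctsd was 1.10-fold lower in both. The osteopontin gene Spp1 had 1 and 2 UMIs in cluster 5, against 3 and 0 in the other microglia.

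**Figure D3:**
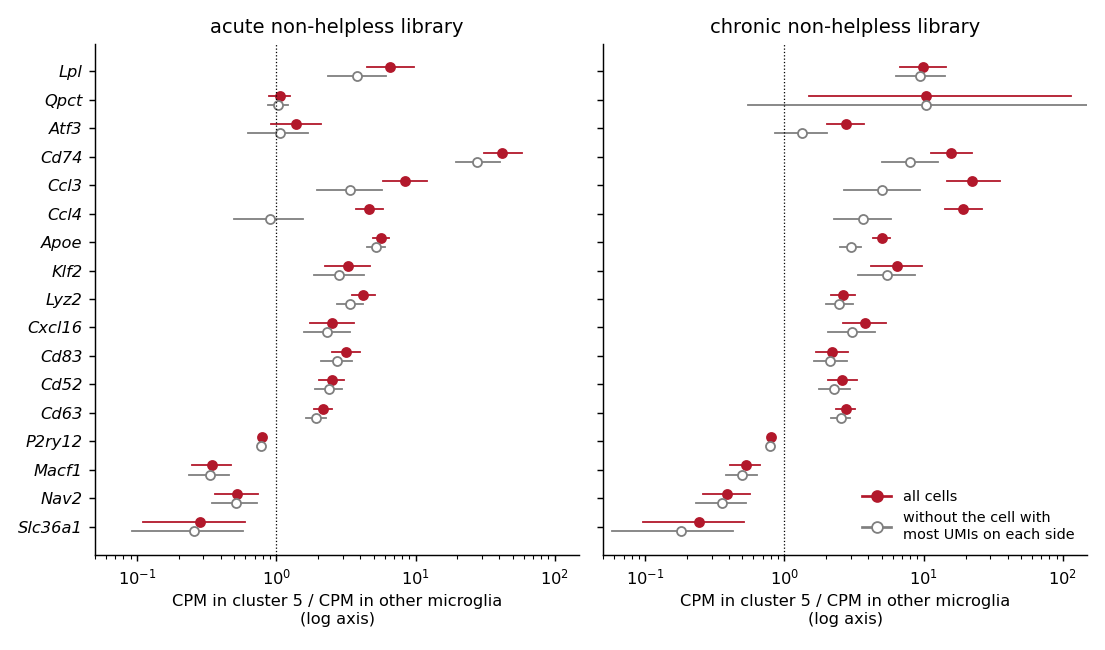
Ratio of CPM in cluster 5 to CPM in other microglia of the same library (x axis, log scale) for 17 genes, with exact 95% intervals of counting error; filled points use all cells and open points leave out the cell with most UMIs of the gene on each side. Lpl, Apoe, Klf2, Lyz2, Cxcl16, Cd83, Cd52 and Cd63 stay above 1 either way, Ccl4 in the acute library goes from 4.66 to 0.90, and the open interval of Qpct in the chronic library runs past the axis.

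Among the highest mean ratios were several genes that are not on that list. The fixed list of lysosome and phagocytosis genes had 1 of 23 members higher and 2 lower in the acute library and 2 of 23 higher and 0 lower in the chronic library, with medians of 0.16 and 0.06. The counts of higher members lie near the 5.85% and 11.0% of all genes of at least 20 CPM that were higher. Cd52, which encodes a small surface glycoprotein of leukocytes, was at 377 against 150 CPM in the acute library (2.51-fold, 2.04 to 3.08) and at 306 against 117 CPM in the chronic library (2.60-fold, 2.04 to 3.31). Thinned shares were 26.5% (18.8% to 35.5%) against 8.31% (5.92% to 11.3%) and 20.0% (12.5% to 29.5%) against 10.2% (7.46% to 13.6%). Klf2, a transcription factor of quiescent leukocytes, was at 135 against 41.1 CPM (3.28-fold) and 157 against 24.6 CPM (6.39-fold). Its UMIs were in 15.7% and 17.7% of cluster 5 cells. Among the single other clusters the share with Klf2 ran from 10.7% to 14.1% in the acute and from 3.75% to 12.6% in the chronic library. Cd83, a surface protein of activated antigen-presenting cells, was at 318 against 100 CPM and 256 against 116 CPM, 3.17-fold in the acute library (2.50 to 4.01), though after thinning the acute shares were 11.97% and 10.8%. Cxcl16, a membrane-bound chemokine, was 2.53-fold and 3.78-fold higher. Smaller differences in the same direction were found for the ferritin heavy chain gene Fth1, 1.66-fold (1.57 to 1.77) and 1.71-fold (1.59 to 1.83), and the metallothionein gene Mt1, 2.09-fold and 1.88-fold. Emp3, Cstb and Lsp1 completed the genes with the highest mean ratio, at 1.96-fold, 1.63-fold and 1.91-fold in the acute and 3.69-fold, 2.67-fold and 2.22-fold in the chronic library.

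**Figure D4:**
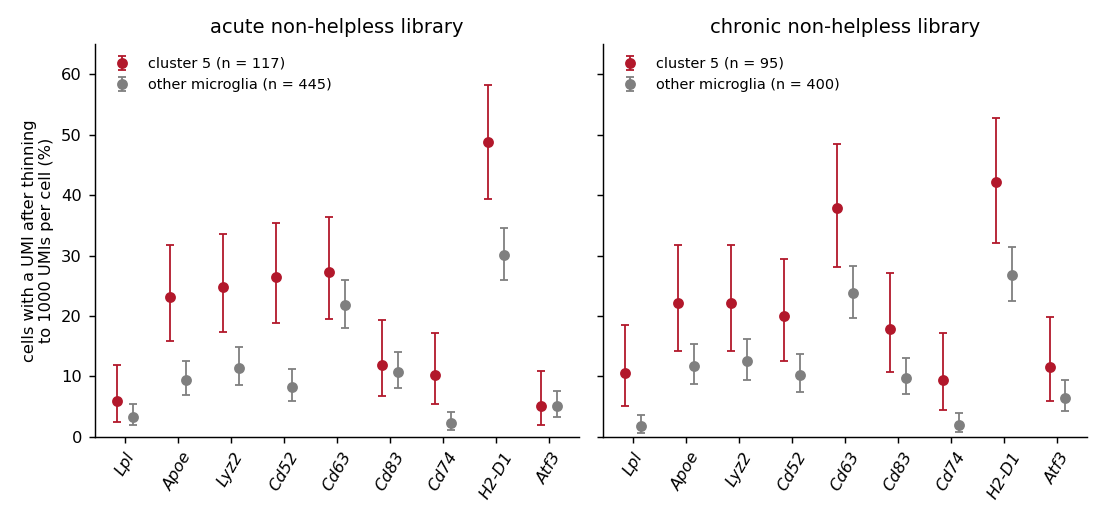
Share of cells with at least 1 UMI of each gene (y axis, percent) after thinning every cell to 1000 UMIs, in cluster 5 and other microglia of the 2 libraries; bars are exact 95% intervals and n is the number of cells deep enough. Apoe, Lyz2, Cd52, Cd74 and H2-D1 were found in a larger share of cluster 5 cells in both libraries, while the acute shares of Cd83 (11.97% and 10.8%) and Atf3 (5.13% and 5.17%) were close.

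Of the 44 genes higher in both libraries, 15 were ribosomal protein genes or unnamed models left out of further naming. For the remaining 29, RefSeq (GRCm38.p6) gave promoters of 18, and of 90 among the 123 named genes lower in both. The promoters were searched on both strands, from 250 bases before to 50 after each start, for the AP-1 site TGACTCA, the CRE site TGACGTCA and the E-box CACGTG. The AP-1 site is bound by Fos and Jun family factors, and Atf3 can bind the CRE site. Among 23 promoters of the genes higher in both, 0 held the AP-1 site, 1 the CRE site (4.35%) and 2 the E-box (8.70%). Among 114 promoters of the genes lower in both, these were found in 1.75%, 2.63% and 8.77%, and among all 32851 promoters in 5.202%, 1.79% and 7.15%. A match describes these letters in these windows and is not evidence of binding. The 250 bases before the start are shown for Apoe (chr7:19699189-19699438, minus strand) and Lyz2 (chr10:117282273-117282522, minus strand), leading genes of the higher group, and for Slamf9 (chr1:172475110-172475359, plus strand), where capitals mark the E-box at position -204 from the start.
Apoe: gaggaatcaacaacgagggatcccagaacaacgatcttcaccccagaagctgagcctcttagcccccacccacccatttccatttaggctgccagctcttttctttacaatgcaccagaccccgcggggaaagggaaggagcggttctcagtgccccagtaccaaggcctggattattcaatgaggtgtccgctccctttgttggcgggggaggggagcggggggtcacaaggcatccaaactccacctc
Lyz2: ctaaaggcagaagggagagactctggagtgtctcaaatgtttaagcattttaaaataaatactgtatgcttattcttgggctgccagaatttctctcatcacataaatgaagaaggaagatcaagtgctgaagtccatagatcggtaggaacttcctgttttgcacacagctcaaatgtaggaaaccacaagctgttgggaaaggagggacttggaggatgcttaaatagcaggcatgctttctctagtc
Slamf9: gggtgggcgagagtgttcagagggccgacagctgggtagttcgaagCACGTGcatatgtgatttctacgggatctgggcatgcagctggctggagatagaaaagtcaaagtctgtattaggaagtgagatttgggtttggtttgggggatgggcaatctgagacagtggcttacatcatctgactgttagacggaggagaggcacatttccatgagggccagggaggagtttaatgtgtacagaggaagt
Slamf9, a receptor of the signalling lymphocyte activation family, was at 110 against 63.8 CPM in the acute and 102 against 62.1 CPM in the chronic library.

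The chemokines Ccl3 and Ccl4, which attract monocytes and lymphocytes, had high ratios, with most of their UMIs in 1 cell of each library. Ccl4 had 155 UMIs in acute and 210 in chronic cluster 5 cells, 4.66-fold (3.72 to 5.83) and 19.2-fold (14.3 to 26.2) above the other microglia by CPM. One acute cell held 139 of the 155 and one chronic cell 178 of the 210. Without the cell with most UMIs on each side, Ccl4 was at a ratio of 0.90 (0.50 to 1.55) in the acute library and 3.66 (2.26 to 5.88) in the chronic library. Ccl3 was 8.42-fold and 22.4-fold higher, with 59 of 84 and 94 of 116 UMIs in the same cells, and 3.38-fold (1.96 to 5.75) and 5.03-fold (2.68 to 9.45) without the cell with most UMIs on each side. These cells had 2.802% and 2.32% microglial marker UMIs. The acute cell also carried 11 UMIs of Atf3, 21 of Cd83 and 10 of the growth factor Csf1. The chronic cell carried 38 of Atf3, 12 of Csf1, 8 of Il1b and 5 of Tnf, that is, all 8 Il1b UMIs and 5 of the 6 Tnf UMIs of cluster 5 in that library.

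The wider cytokine and chemokine list had higher medians that depended on the leading cell of each gene. Of 12 members measured in the acute library 6 were higher and 2 lower, with a median log2 ratio of 0.58, and of 11 in the chronic library 6 were higher and 0 lower, with a median of 1.02. Without the cell with most UMIs of each gene on each side the medians were 0.09 in both libraries. For NF-kB subunits, feedback regulators and targets, 3 of 14 and 6 of 16 members were higher and 1 was lower in each library. The share of all genes of at least 20 CPM that was higher was 5.85% in the acute and 11.0% in the chronic library. The chronic median of 0.36 was -0.05 once cells were thinned to 1000 UMIs. Immediate early genes were mixed: Ier2 was 1.87-fold and 1.70-fold higher, Fosb was 2.53-fold (1.47 to 4.72) and 1.86-fold (0.93 to 4.19) lower, and Fos had ratios of 1.17 (0.98 to 1.40) and 1.16 (0.98 to 1.37).

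Antigen presentation by MHC class II stood out by its ratios and rested on very few barcodes. Cd74, the invariant chain that accompanies class II molecules, had 387 UMIs in cluster 5 against 47 in the other acute microglia, 42.1-fold (31.0 to 58.2) by CPM. In the chronic library it had 147 against 49 UMIs, 15.6-fold (11.2 to 22.1). A pair of acute barcodes held 191 and 119 of the 387 UMIs, with H2-Aa at 50 and 36. The first had 3.53% microglial marker UMIs and the second 0.37%, together with 83 Apoe and 46 Lyz2 UMIs. One chronic barcode held 96 of the 147, with 39 UMIs of the B cell gene Cd79a and 0.037% microglial markers. Cd74 was nonetheless found in 14.9% and 17.7% of cluster 5 cells against 6.70% and 6.20% of the others, and thinned shares were 10.3% (5.41% to 17.2%) against 2.25% (1.08% to 4.09%) and 9.47% (4.42% to 17.2%) against 2.00% (0.87% to 3.90%).

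Over the class II list, 4 of 8 measured members were higher in each library, Cd74, H2-Aa, H2-Ab1 and H2-Eb1, and H2-DMb1 was lower in the chronic library. Over all genes of at least 20 CPM, 5.85% were higher in the acute and 11.0% in the chronic library. H2-Aa UMIs came from 3 of 121 and 2 of 96 cluster 5 cells. The median log2 ratio was 2.01 in the acute and 0.81 in the chronic library. A marker check left out cells with under 0.5% microglial marker UMIs or at least 20 neutrophil marker UMIs, which removed 1 and 4 cluster 5 cells. With it the chronic median, over 5 measured members, was -0.00487, and H2-Aa had 1 UMI in chronic cluster 5 cells. Cd74 was still 37.4-fold (26.4 to 54.2) and 4.68-fold (3.03 to 7.19) higher. In the acute library, however, 1 barcode that passed the check held 191 of the 268 Cd74 UMIs left in cluster 5. The same barcode held 50 of the 51 H2-Aa UMIs left there. Cd79b, a B cell receptor component also found in microglia and among the highest mean ratios, was 1.05-fold lower (0.65 to 1.78) in the acute library and 4.29-fold higher in the chronic one, and its chronic log2 ratio with the marker check was -0.19. Class I was less variable: H2-D1 was 1.73-fold (1.51 to 1.99) and 1.91-fold (1.65 to 2.196) higher, and B2m 1.26-fold and 1.18-fold.

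Single cells shaped other ratios too. Of the 94 and 169 genes higher in cluster 5, 75 and 132 were still at least 1.5-fold higher without the cell with most UMIs on each side. Of those lower, 531 of 531 and 417 of 421 stayed so. Leaving out 1 cell takes a larger part of the smaller cluster 5 sums, which lowers most ratios. The lower calls were thus bound to stay in most cases, and the counts of higher and lower genes are not compared. At least 50% of the cluster 5 UMIs lay in 1 cell for 4 acute genes (Ccl3, Ccl4, H2-Aa and H2-Eb1) and 12 chronic ones. Among the latter was Ttr, the thyroid hormone carrier of the choroid plexus, with 107 UMIs in 1 cell. The galectin gene Lgals3 had 37 UMIs in 5 of 96 chronic cluster 5 cells and 7 UMIs in 3 of 121 acute ones, against 9 and 0 in the others.

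Not every cell of the cluster carried its leading transcripts. Of 8 genes chosen because they were higher there (Lpl, Apoe, Ccl3, Ccl4, Cd74, Lyz2, Klf2 and Cd83), none was found in 29.8% of acute and 22.9% of chronic cluster 5 cells, against 32.6% and 32.8% of the deeper other microglia. With cells thinned to 1000 UMIs the shares with none were 53.0% against 63.6% in the acute and 43.2% against 65.8% in the chronic library. The choice of genes sets the direction of these differences, which are given as a description.

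Homeostatic microglial genes were at slightly lower levels. Of 20 measured in each library, 0 were at least 1.5-fold higher and 2 were lower, P2ry13 and Tgfbr1 in the acute and Sall1 and Slc2a5 in the chronic library. That is a smaller share than the 21.7% and 15.9% of all genes of at least 20 CPM that were lower. The list's median log2 ratio was -0.28 and -0.34, and with median-of-ratios scaling the acute median was -0.10. P2ry12 was at 4904 against 6245 CPM, 1.27-fold lower (1.21 to 1.34), and 6275 against 7829 CPM, 1.25-fold lower (1.19 to 1.31). Cx3cr1 was 1.33-fold (1.26 to 1.41) and 1.32-fold (1.25 to 1.40) lower. P2ry12 was found in 100% and 96.9% of the cells.

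Ribosomal protein genes lay on the higher side: 18 of 83 measured in the acute and 38 of 82 in the chronic library were at least 1.5-fold higher and 0 were lower, with medians of 0.48 and 0.56. The nuclear-retained RNA Malat1 was 1.51-fold (1.45 to 1.57) and 1.25-fold (1.203 to 1.29) lower. Interferon-response genes were higher in 4 of 8 cases with 1 lower, Irf1, in the acute library and higher in 1 of 7 with 0 lower in the chronic one, and Ifi27l2a was the member higher in both libraries, with UMIs in 13.2% and 7.29% of cluster 5 cells against 2.46% and 0.99% of the others. Heat shock chaperones gave 1 of 20 higher and 3 lower in the acute and 0 higher and 5 lower in the chronic library, with Hspb1 and Hsph1 lower in both. Of all genes of at least 20 CPM, 5.85% and 11.0% were higher and 21.7% and 15.9% lower in the acute and chronic library.

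**Figure D5:**
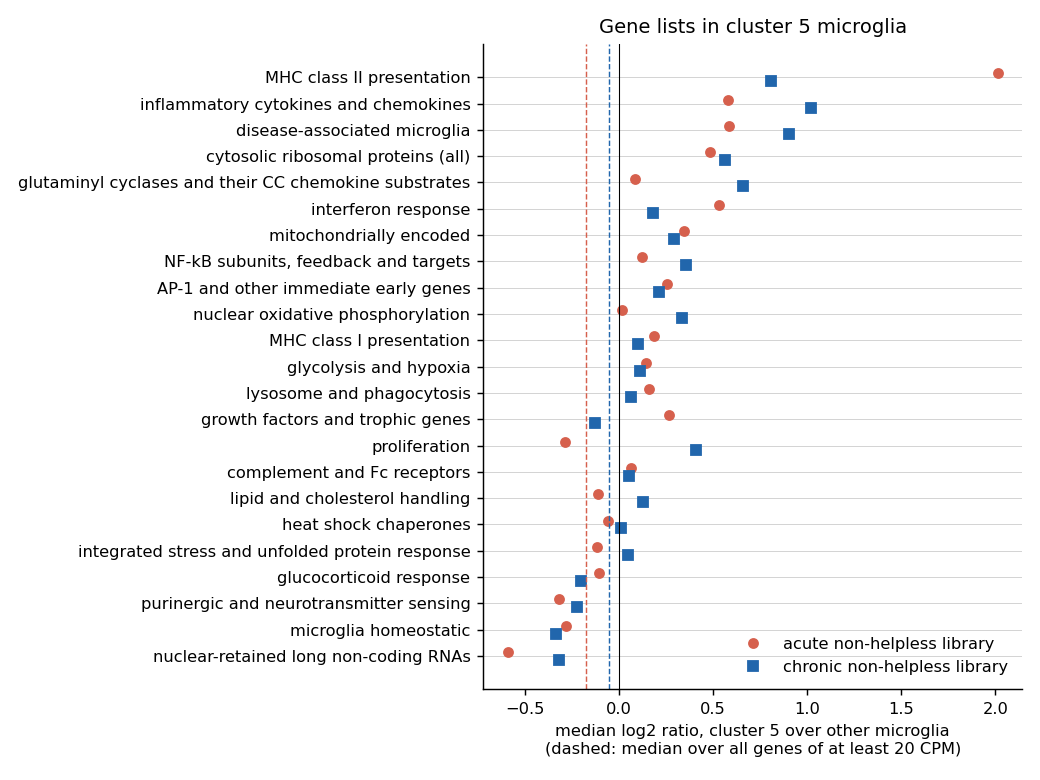
Median log2 ratio of cluster 5 over other microglia of the same library (x axis) for each gene list, with circles for the acute and squares for the chronic non-helpless library; dashed lines mark the median over all genes of at least 20 CPM, -0.18 and -0.05. The MHC class II, cytokine and disease-associated lists have medians of at least 0.58 in both libraries, and the homeostatic list lies at -0.28 and -0.34.

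At the minimum level used, genes lower in cluster 5 outnumbered those higher and were longer by their median. With no minimum the acute library had 1567 higher and 2033 lower genes, and the chronic direction turned, with 2107 higher and 1509 lower. With the lowest mean ratio came Slc36a1, an amino acid transporter of lysosomes, at 18.9 against 67.0 CPM (3.55-fold lower, 1.67 to 9.01) and 20.4 against 83.9 CPM (4.11-fold lower, 1.95 to 10.4). The phosphate exporter Xpr1 was 4.99-fold (1.89 to 18.7) and 2.01-fold (1.012 to 4.52) lower. Trip11, Smchd1, Trip12, Fgfr1op, Gpr165 and the ubiquitin ligase Huwe1 were between 2.145-fold and 3.65-fold lower in both libraries, and Upk1b was 2.13-fold and 3.20-fold lower. St3gal5, which makes the ganglioside GM3, was 1.75-fold (0.98 to 3.38) and 3.999-fold lower, Hltf 3.87-fold and 1.63-fold (0.90 to 3.26), and Hist1h2ac 3.70-fold and 1.34-fold (0.94 to 1.99). The better covered genes gave narrower intervals. Macf1, a giant linker of microtubules and actin, was at 116 against 334 CPM (2.88-fold lower, 2.11 to 4.02) and 213 against 402 CPM (1.89-fold lower, 1.48 to 2.44), in 28.9% against 63.8% and 43.8% against 76.7% of cells. Nav2, a neuron navigator family member, was 1.91-fold and 2.57-fold lower, and the histone methyltransferase gene Kmt2c 2.70-fold and 1.89-fold. Among the lowest of the acute library alone, the cell cycle inhibitor Cdkn1a was 6.52-fold lower (2.17 to 32.2) and the chemokine Ccl5, with 0 against 99 UMIs, at least 6.46-fold lower. One cell held 52 of the 99 UMIs, and with the marker check, which left that cell out, Ccl5 was at least 3.04-fold lower. The other acute microglia also held 95 UMIs of T cell markers in 15 cells, whose part in the Ccl5 difference was not tested. In the chronic library Cdkn1a had 12 against 52 and Ccl5 had 1 against 0 UMIs. Eef2kmt, Poldip3, Gimap1 and Ddx46 were 3.43-fold to 4.84-fold lower in the acute library, and differed by at most 1.32-fold in either direction in the chronic one.

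The median genomic length of the genes lower in cluster 5 was 39.3 kb in the acute and 52.9 kb in the chronic library, of the measured genes 19.3 and 21.9 kb, and of the genes higher in cluster 5 5.07 and 6.08 kb. Cluster 3, whose cells were shallow and poor in ribosomal protein RNA, is part of the comparator. Without it the lower genes still had the longer medians, 30.9 kb against 18.4 kb measured and 38.1 kb against 20.0 kb. Cluster 5 also differed from the other microglia in depth and ribosomal share, and the part of these in the length difference was not tested.

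Set against single clusters of the same library, cluster 5 was closest to cluster 2, by a small margin over cluster 1. The median absolute difference over genes was 1.200-fold against cluster 2, 1.22-fold against cluster 1 and 1.58-fold against cluster 3 in the acute library, and 1.17-fold, 1.22-fold and 1.70-fold in the chronic library. Counting error adds to this measure, more so in smaller sums. The cluster sums ran from 169504 to 1156041 UMIs in the acute and from 196745 to 1038611 in the chronic library, with cluster 3 the smallest in both. A fresh clustering of the microglia of each library alone (Leiden) separated cluster 5 only in part. In the acute library 1 new cluster of 60 cells was 81.7% (69.6% to 90.5%) cluster 5 and another of 50 cells was 64.0% (49.2% to 77.1%), and these held 40.5% and 26.4% of all cluster 5 cells. In the chronic library the richest new cluster, of 77 cells, was 46.8% (35.3% to 58.5%) cluster 5. Nearest neighbours were taken with a setting of 15 that counts the cell itself. Among those of a cluster 5 cell, 45.7% were cluster 5 cells in the acute and 31.4% in the chronic library. Among the neighbours of other microglia these shares were 5.64% and 5.601%, while cluster 5 made up 21.3% and 19.2% of all microglia there.

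The cluster 5 cells of the libraries differed from each other as well. Over 2162 genes, 137 were at least 1.5-fold higher in acute and 371 in chronic cluster 5 cells, and the median absolute difference was 1.24-fold, against 1.16-fold between the other microglia of the same libraries, which are summed over more cells. Qpct was 40.0-fold higher in the acute cells. In the other microglia it was 394-fold (109 to 3256) higher in the acute library, with 835 against 2 UMIs, so its difference was not particular to cluster 5. Levels of the leading genes were alike in part: Apoe was at 1202 and 1145 CPM (ratio 1.05), Lyz2 at 525 and 457 CPM (1.15), Cd63 at 679 and 754 CPM (0.90) but Lpl was at 170 and 253 CPM (0.67, 0.48 to 0.94). Cd74 was at 1043 and 428 CPM (2.44, 2.01 to 2.96). Summed UMIs were higher in the chronic cells for Ccl3 (ratio 0.67, 0.50 to 0.89) and Ccl4 (0.68, 0.55 to 0.84). These ratios rest on few barcodes. A single acute and a single chronic cell held 59 of 84 and 94 of 116 Ccl3 UMIs, and 139 of 155 and 178 of 210 Ccl4 UMIs. For Cd74 a pair of acute barcodes held 191 and 119 of 387 UMIs and 1 chronic barcode 96 of 147. No ratio between the libraries was computed without these cells. Batch, paradigm and time cannot be told apart here.

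Cluster 6, another number that took in many non-microglial cells, had some of the leading genes higher and others not. In the non-shocked, non-recovered and recovered libraries Lpl in cluster 6 microglia had ratios of 0.71 (0.28 to 1.53), 0.18 (0.00 to 1.33) and 0.96 (0.11 to 3.77) to the other microglia. Apoe had ratios of 1.17, 1.10 and 2.48 (1.72 to 3.48), and Cd52 of 0.93, 1.47 and 1.18, all but the recovered Apoe value with intervals that include 1. Lyz2 had 205 UMIs in non-recovered cluster 6 cells, 191 of them in 1 cell. Cd74 was 21.5-fold (16.9 to 27.7) higher in non-shocked and 16.5-fold (11.96 to 22.8) higher in recovered cluster 6 microglia, with UMIs in 3.05% and 17.4% of cells against 9.50% and 8.90% of the others. Klf2 was 3.97-fold higher (1.85 to 7.82) in the recovered library, while it had 0 UMIs in non-shocked cluster 6.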

How the data were processed

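Values are the authors' deposited raw counts of UMIs per gene and cell, and deposited annotations (cell type, cluster, batch, response) taken as given, per the file headers. The submitters' processing notes name Cell Ranger 2.2.0, Seurat 2.3.4 and build mm10, without saying which step each served. Filtering, clustering and typing are not given in the sources used here. UMI sums equalled the deposited totals in all 3005 cells, and 257 pairs of older and newer symbols were merged. The cluster 5 sums held 371130 and 343278 UMIs, those of other microglia 1896176 and 1788146.

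UMIs were summed per library and side and scaled to CPM. Ratios have conditional exact, shares Clopper-Pearson intervals (scipy 1.17.1). In log2 ratios a lower count of 0, 1 or 2 was set to 3, never past a ratio of 1. Doublets (Scrublet, scanpy 1.11.5) were kept, since they were 55 of 3005 cells. Named genes were Lpl, Qpct and Atf3; the 15 highest and 15 lowest mean ratios and the 10 of each in the acute library; and list members at least 1.5-fold apart in both. Mitochondrial, ribosomal, haemoglobin, immunoglobulin, T cell receptor, sex-linked marker and unnamed genes were left out. Other genes were named after their values were seen. The members and lists were chosen with earlier results of these data known. Each group was 1 library, so no test was made; ratios and intervals were tested on simulated data.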

Additional observations from a re-analysis of the deposited data

How the results depend on the processing

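No paired analysis was possible because each group had 1 library. Of 1480 recomputed ratios of named genes 1377 stayed within the counting interval of the reported value, and all 10 recomputed shares of cluster 5 did so. Median-of-ratios scaling gave 236 higher and 261 lower genes in the acute library. Weighting each cell equally gave 148 higher acute and 697 lower chronic genes, and thinning to 1000 UMIs gave 101 higher chronic genes. With no minimum level there were 1567 higher and 2033 lower acute and 2107 higher and 1509 lower chronic genes, and with a fold of 2 there were 15 and 109, and 40 and 101. Of single genes, Ccl4 in the acute library had a log2 ratio of -0.15 without the cell with most UMIs on each side and Emp3 of -0.39 after thinning. Cd79b in the chronic library was at -0.19 with the marker check and -0.17 without cells that hold 10 or more UMIs of another cell type. The chronic median of MHC class II genes was -0.00487 and -0.00547 under the same alternatives. The cause was not tested, except that the removed cells carried these genes. Comparisons without cluster 3, without the leading cell and without cells rich in another type's UMIs were chosen after seeing the data. Depth limits what can be said of Cst7, Axl, Itgax and Spp1, each with at most 20 UMIs in cluster 5 of a library.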
